A study of Vitis vinifera with 6 samples.

Results

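The genes described here were 10 sugar carriers of grapevine, among the 34369 genes with a probe on the array. They were taken by gene identifier, from a list drawn up with earlier results of these arrays known, and SWEET10 was among the genes that the study had listed as raised on them. They are the hexose transporters HT1 (VIT_00s0181g00010), HT3 (VIT_11s0149g00050) and HT5 (VIT_05s0020g03140), the tonoplast monosaccharide transporters TMT1 (VIT_18s0122g00850) and TMT2 (VIT_03s0038g03940), the sucrose carriers SUC11 (VIT_18s0001g08210), SUC12 (VIT_01s0026g01960) and SUC27 (VIT_18s0076g00250), and the SWEET genes SWEET4 (VIT_14s0066g01420) and SWEET10 (VIT_17s0000g00830). All 10 had 1 probe each. The annotation used in the study calls VIT_00s0181g00010 sugar transporter 1 (VvHT8) and calls VIT_17s0000g00830 nodulin MtN3, the name of the legume gene from which the SWEET family was first known. For HT1, whether the probe also binds transcripts of a related hexose transporter was not tested.

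Leaf cells export the sugar made by photosynthesis as sucrose, and young leaves that still grow import it. Sucrose carriers of the SUC type move sucrose across membranes together with protons, and hexose transporters of the HT type do the same for glucose and related hexoses at the plasma membrane once sucrose has been cleaved in the cell wall. The TMT proteins load hexoses into the vacuole in exchange for protons, so that their work depends on the proton gradient across the tonoplast. SWEET proteins let sugars pass in either direction along the concentration gradient, and several of them are known from other plants to be induced by microbes.

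RNA came from young, well expanded leaves of Vitis vinifera cv. Sultana plantlets grown in vitro. The plantlets were infiltrated at 5 weeks under vacuum with Agrobacterium tumefaciens strain C58C1, and leaves were taken 6 days later. The 35S:VvWRKY26 group received the VvWRKY26 coding sequence behind the constitutive 35S promoter, and the control group received the vector pK7WG2.0 with a non-coding sequence, although the sample labels call the control plantlets wild type. The transformation was transient, so each array measured a mixture of transformed and untransformed cells, and both groups had been exposed to Agrobacterium; in such a bulk sample, fewer cells of a type and less RNA per cell cannot be told apart. The study speaks of the 3 selected plantlets per group as lines, and 1 line was hybridized to each of the 6 arrays. The study picked these lines from a larger set of plantlets for a high VvWRKY26 transcript level in the over-expressing group and a low one in the control.

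Levels are given as the log2 intensity of the probe minus that of the 75th percentile of the array, so that 0 is the level of a gene at that percentile and 1 unit is a doubling. As probes differ in how well they hybridize, a level was compared between arrays and not between genes. The scanner software marks a spot as well above background when it is clearly brighter than its surroundings, and from 25391 to 32600 probes of each array had this mark. No spot was saturated. In each of 3 scans 1 control and 1 over-expressing line were read together. These pairs were both replicates 1 (scan 1), control replicate 2 with 35S:VvWRKY26 replicate 3 (scan 2), and control replicate 3 with 35S:VvWRKY26 replicate 2 (scan 3). The file headers gave the arrays of scans 1 and 2 the same slide name and the same positions on it. Control replicates 1 and 2, which share a position, had the lowest correlation of all pairs of arrays (Pearson's r = 0.898 across 34369 genes). The other pair that shares a position, 35S:VvWRKY26 replicates 1 and 3, correlated at 0.951. The VvWRKY26 probe (VIT_08s0040g03070) stood at 3.12, 3.25 and 2.57 in control replicates 1 to 3 and at 3.40, 3.69 and 3.32 in 35S:VvWRKY26 replicates 1 to 3, without overlap of the groups. As the lines had been picked for the level of this transcript, that separation is a description and no test. Its log2 difference of 0.49 had an interval from -0.35 to 1.33, and whether the probe lies in the cloned coding sequence was not tested. Of the leaf markers, the photosystem II protein PSBS, the chlorophyll synthesis enzyme CRD1 and the photorespiratory enzyme GLDP2 were well above background on all 6 arrays, and the groups overlapped in each.

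Of the 10 sugar carriers, SWEET10 was the one that kept the groups apart, and the other 9 overlapped. Its level in 35S:VvWRKY26 was 3.66 times that of the control, from 2 over-expressing lines, as the spot of replicate 3 was marked as an outlier and left out. In limma no carrier passed an adjusted p of 0.05, as no gene did among the 34369 tested (percent called: 0), and the adjusted p of each carrier was 0.999983. Groups did not overlap in 1 of the 10 carriers, against 4.8% of all genes. An unadjusted p under 0.05 was found for 1 of the 10, against 1.03% of all genes, and that 1 was again SWEET10. The study had listed this gene among those raised on these same arrays, so its count is not independent evidence. Of the 10 carriers 5 had a positive and 5 a negative log2 difference, with a median of 0.01 beside a median of -0.05 over all genes, of which 44.6% were above 0. A difference of at least 2-fold was seen in 1 of the 10, against 7.59% of all genes.

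**Figure D1:**
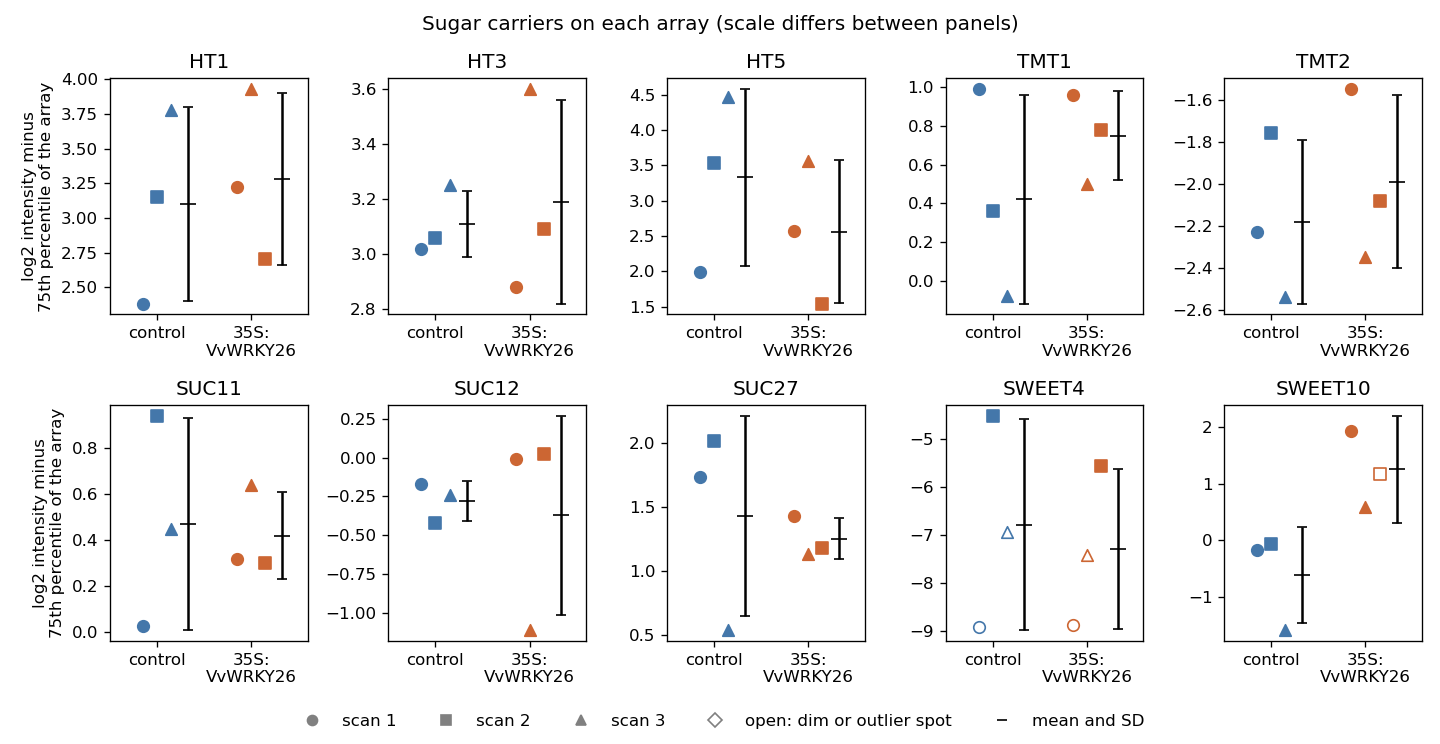
Level of each sugar carrier on each array (vertical axis, log2 intensity minus the 75th percentile of the array; each panel has its own scale), with control arrays on the left and 35S:VvWRKY26 arrays on the right, symbols by scan, open symbols for spots that were dim or marked as outliers, and the mean with SD of each group beside them. Only in the SWEET10 panel do all 35S:VvWRKY26 points, from 0.59 to 1.93, lie above all control points, from -1.59 to -0.07.

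SWEET10 encodes a sugar facilitator of the SWEET family. Its processed signal, the spot intensity after background subtraction, was 1434, 1010 and 265 in control replicates 1 to 3 and 5628, 1289 and 3239 in 35S:VvWRKY26 replicates 1 to 3. On the log2 scale the control arrays stood at -0.17, -0.07 and -1.59, and the 35S:VvWRKY26 arrays at 1.93, 0.59 and 1.17. Control replicate 3 was the lowest array by a wide gap, and no over-expressing line was as low as the highest control. The spot in 35S:VvWRKY26 replicate 3 was marked as an outlier for uneven pixels and was left out of the mean and the test. The means were then -0.61 ± 0.85 (SD, n = 3) in the control and 1.26 ± 0.95 (SD, n = 2) in the over-expressing lines, a log2 difference of 1.87 with a standard error of 0.72 and a 95% interval from 0.01 to 3.73 (limma, unadjusted p = 0.0492, adjusted p = 0.999983). The exact permutation test on these 5 values gave a two-sided p of 0.1, the smallest that 3 arrays against 2 allow, and with the marked spot kept it again gave 0.1, the smallest for 3 against 3.

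Compared within a scan, the 35S:VvWRKY26 array was higher in SWEET10 by 2.10 in scan 1 and by 2.18 in scan 3, and with the marked spot by 1.25 in scan 2. The 2 unmarked differences were close to each other although the controls of these scans were the middle and the lowest of the 3. With scan as a block the log2 difference, which then rests on scans 1 and 3, was 2.14 with a standard error of 0.37, and the unadjusted p was 0.00394 in limma, again with no call after adjustment (adjusted p = 0.876185). With that block 5.3% of all genes had an unadjusted p under 0.05, and 1 of the 10 carriers did. Leaving out 35S:VvWRKY26 replicate 1, the highest array, took the log2 difference to 1.20, and leaving out replicate 2 took it to 2.54. As the spot of replicate 3 was already left out, each of these values rests on 1 over-expressing array. Without control replicate 1, 2 or 3 the log2 difference was 2.09, 2.14 or 1.38. The unadjusted p was then no longer under 0.05 (0.0678, 0.0567 and 0.101, limma).

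**Figure D2:**
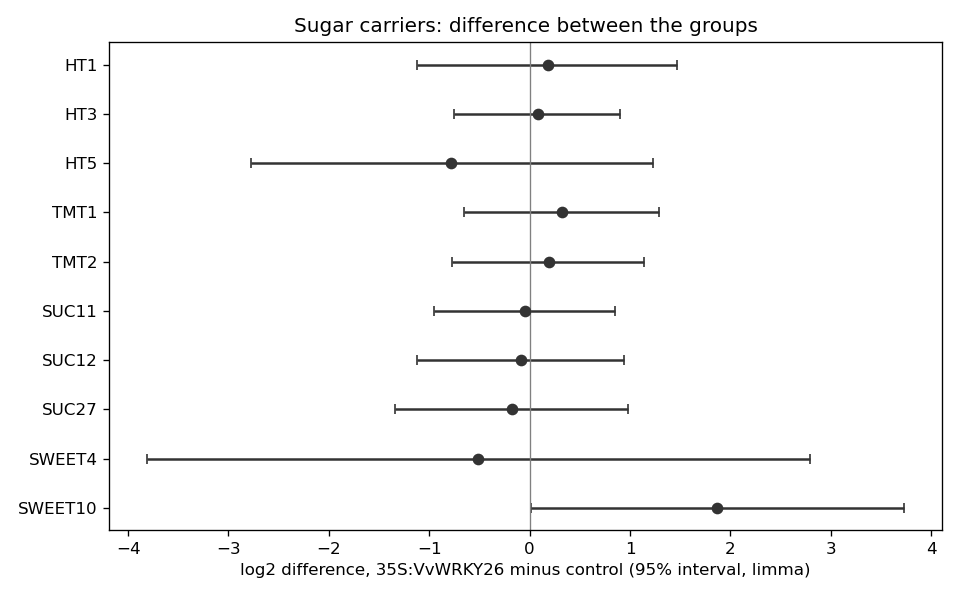
Log2 difference of each sugar carrier, 35S:VvWRKY26 minus control (horizontal axis), over the 6 arrays without the marked SWEET10 spot, with points for the limma estimate and bars for its 95% interval. The SWEET10 interval, from 0.01 to 3.73, starts just above 0, and the other 9 intervals include 0.

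SWEET4, known in grapevine as a glucose carrier whose transcript rises on infection by a gray mold fungus, was close to background in these leaves. Only 2 of the 6 arrays showed its probe well above background, control replicate 2 at -4.52 and 35S:VvWRKY26 replicate 3 at -5.58, the pair of scan 2. The other arrays, control replicate 1 at -8.92, control replicate 3 at -6.94, 35S:VvWRKY26 replicate 1 at -8.88 and 35S:VvWRKY26 replicate 2 at -7.43, were not well above background, so their level is not known beyond being low. The order of the arrays in SWEET4 thus followed the scan, with both arrays of scan 2 above the other 4 and both of scan 1 below them, as was the case for 39% and 27.7% of all genes. The fitted log2 difference was -0.51 with a standard error of 1.34 and an interval from -3.81 to 2.79, and with 1 measured array per group it gives no usable fold.

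The hexose transporters showed no difference between the groups beyond the spread of the arrays. HT1, a hexose/proton symporter of the plasma membrane, stood at 2.38, 3.15 and 3.78 in control replicates 1 to 3 and at 3.22, 3.93 and 2.70 in 35S:VvWRKY26 replicates 1 to 3. The lowest array was a control (replicate 1) and the highest an over-expressing line, but the groups overlapped over most of their ranges. The log2 difference was 0.18 with an interval from -1.12 to 1.47 (limma, adjusted p = 0.999983), and without 35S:VvWRKY26 replicate 2 it was -0.15.

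HT3, a further member of the hexose transporter family, was the steadiest of the 10 carriers, with a range of 0.72 log2 units over the 6 arrays. Its levels were 3.02, 3.06 and 3.25 in control replicates 1 to 3 and 2.88, 3.60 and 3.09 in 35S:VvWRKY26 replicates 1 to 3. The over-expressing lines held both the lowest and the highest array. The log2 difference of 0.08 had an interval from -0.75 to 0.90, which leaves out a 2-fold difference in either direction.

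HT5, a hexose transporter known in grapevine leaves for its induction by pathogens and abscisic acid, varied most among the carriers that were well above background on all arrays and overlapped between the groups. It stood at 1.99, 3.53 and 4.47 in control replicates 1 to 3 and at 2.57, 3.56 and 1.54 in 35S:VvWRKY26 replicates 1 to 3. The highest level was that of control replicate 3 and the lowest that of 35S:VvWRKY26 replicate 3, a span of 2.93 log2 units. The group means were 3.33 ± 1.25 (SD, n = 3) in the control and 2.56 ± 1.01 (SD, n = 3) in the over-expressing lines, and the log2 difference of -0.78 was below its standard error of 0.81 (exact permutation test, two-sided p = 0.5). Within scans the over-expressing line was higher by 0.58 in scan 1, and the differences were -1.99 in scan 2 and -0.91 in scan 3, so the direction was not shared. The difference was -0.21 without control replicate 3 and -1.45 without control replicate 1.

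Both arrays of scan 3 lay above the other 4 in each of the 3 hexose transporters, as they did in 8.41% of all genes. The scan 3 means were 3.86 for HT1, 3.42 for HT3 and 4.01 for HT5, whereas the scan 1 means were 2.80, 2.95 and 2.28. Scan 3 was also the one scan on the second slide, so that scan, slide and the plantlets behind these arrays cannot be told apart.

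The tonoplast transporters had small positive differences that did not exceed their errors. TMT1 stood at 0.99, 0.36 and -0.08 in control replicates 1 to 3 and at 0.96, 0.50 and 0.78 in 35S:VvWRKY26 replicates 1 to 3. The over-expressing lines lay within the range of the controls. The log2 difference was 0.32 with an interval from -0.65 to 1.29 (exact permutation test, two-sided p = 0.5). It kept its sign in all 21 alternatives, between 0.07 and 0.61, whereas within scans it was -0.04, 0.42 and 0.58 in scans 1, 2 and 3. Both arrays of scan 1 were the highest of the 6, which was so for 3.7% of all genes, and in no carrier was scan 2 the lowest pair, against 1.47% of all genes.

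TMT2, the second tonoplast transporter, stood at -2.23, -1.76 and -2.54 in control replicates 1 to 3 and at -1.55, -2.35 and -2.08 in 35S:VvWRKY26 replicates 1 to 3. Both arrays of scan 3 were the lowest of the 6, which was so for 14.7% of all genes. The log2 difference of 0.19, with an interval from -0.77 to 1.14, rested on scan 1, with a difference of 0.68, and without 35S:VvWRKY26 replicate 1 it was -0.03.

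The sucrose carriers all had log2 differences below 0 and close to it, from -0.18 to -0.05. SUC11 stood at 0.03, 0.94 and 0.45 in control replicates 1 to 3 and at 0.32, 0.64 and 0.30 in 35S:VvWRKY26 replicates 1 to 3. The 3 over-expressing lines lay between the lowest and the highest control. The log2 difference was -0.05, and its interval from -0.95 to 0.85 leaves out a 2-fold difference in either direction.

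SUC12 stood at -0.17, -0.42 and -0.24 in control replicates 1 to 3 and at -0.01, -1.11 and 0.02 in 35S:VvWRKY26 replicates 1 to 3. Of the over-expressing lines 2 lay above all controls and replicate 2 lay below them, so that the SD was 0.13 (n = 3) in the control and 0.64 (n = 3) in the over-expressing lines. The log2 difference was -0.09 over the 6 arrays and 0.28 without 35S:VvWRKY26 replicate 2, where the groups no longer overlapped. On these 5 arrays the groups did not overlap in 2 of the 10 carriers, SUC12 and SWEET10, against 11.2% of all genes. For SWEET10 only 1 over-expressing array, replicate 1, was then left, because the marked spot of replicate 3 was not counted.

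SUC27 stood at 1.73, 2.01 and 0.54 in control replicates 1 to 3 and at 1.43, 1.13 and 1.18 in 35S:VvWRKY26 replicates 1 to 3. Both arrays of scan 3 were the lowest of the 6, as in TMT2. The controls spread widely, with an SD of 0.78 (n = 3) against 0.16 (n = 3) in the over-expressing lines, which all lay inside the control range. The log2 difference was -0.18 with an interval from -1.34 to 0.98, and within scans it was -0.30, -0.83 and 0.59 in scans 1, 2 and 3.

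**Figure D3:**
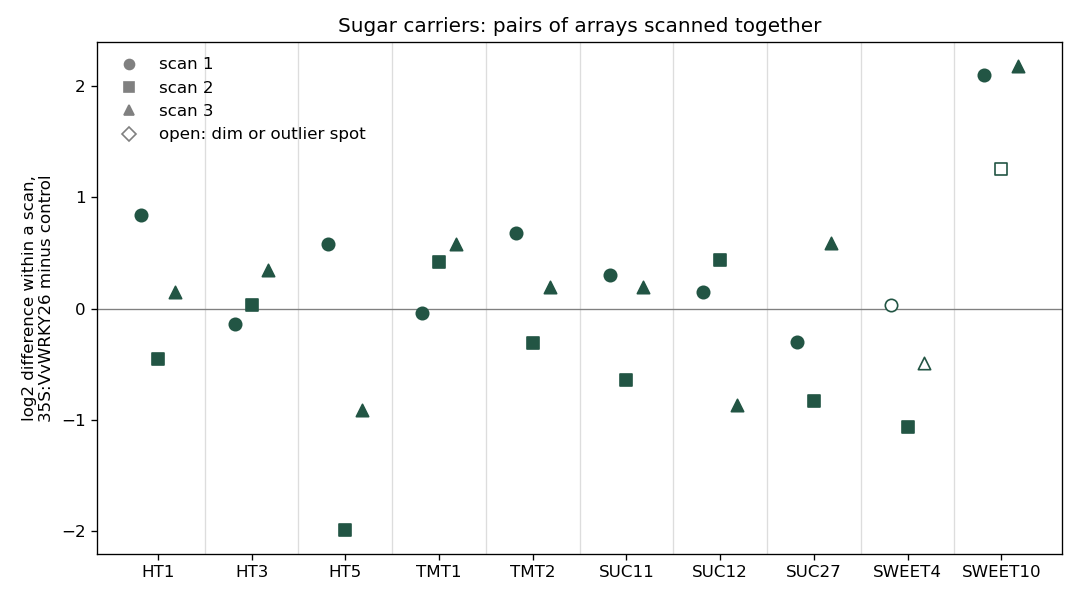
Log2 difference between the 35S:VvWRKY26 and the control array that were scanned together (vertical axis), for each sugar carrier and each of the 3 scans, with open symbols where a spot was dim or marked as an outlier. SWEET10 has all 3 points above 0, from 1.25 to 2.18, while each of the other 9 carriers has points on both sides of 0.

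SWEET10 was thus the carrier with a difference in the same direction in all 3 scans, if its marked spot is counted. Among the genes without a marked spot, the over-expressing line was higher in all 3 scans in 11.6% and lower in all 3 in 14.3%. The direction of the scan differences was mixed in the other 9 carriers. In HT1, TMT2 and SUC11 the over-expressing line was above its control except in scan 2. In that scan HT5, SUC27, SWEET4 (dim in the other scans) and SWEET10 (with its marked spot) also had their lowest differences.

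Patterns over the 6 arrays were compared between carriers as a description, with arrays of a scan not independent of each other. HT1 and HT5 were the most alike pair (Pearson's r = 0.84, 6 arrays), and HT3 was most like HT1 (r = 0.70). For TMT1 the carrier most alike was SWEET10 (r = 0.76), with its marked spot kept, and for TMT2 it was SWEET10 as well (r = 0.71). SUC11 was most like SWEET4 (r = 0.71), which was near background on 4 arrays, SUC27 was most like TMT2 (r = 0.66), and no carrier was closely like SUC12 (TMT2, r = 0.37). The most opposed pairs were HT5 with TMT1 and HT3 with SUC12 (r = -0.88 for both).

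Another 19 genes of sugar metabolism and transport were picked from those that the tables of the study annotate, and the study had listed 4 of them as raised on these arrays. Whether the list is complete was not checked, and its counts and medians hold for the listed genes only. No gene of the 19 passed the adjusted threshold, and limma gave 1 an unadjusted p under 0.05, with a higher level in the over-expressing lines, where 0.541% of all genes were so placed. That gene was 1 of the 4 that the study had chosen on these arrays, and none of the other 15 had an unadjusted p under 0.05. The 15 genes not chosen on these arrays had a median log2 difference of -0.17, with 7 above and 8 below 0. Of the 4 chosen ones all were above 0, with a median of 0.81, which their choice largely fixed. Without 35S:VvWRKY26 replicate 2 this median was 1.47, and the groups then did not overlap in the 4 genes, against 11.2% of all genes. In the normalized table of the study that replicate is the mean of the other two, so leaving it out comes close to the values of that table, and the 4 genes support nothing here.

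The gene with the small p was a sugar transporter of the ERD6 type (VIT_14s0030g00280), a family with members at the tonoplast in Arabidopsis. It stood at -5.95, -5.34 and -6.93 in control replicates 1 to 3 and at -4.52, -3.67 and -4.06 in 35S:VvWRKY26 replicates 1 to 3, without overlap. The mark of a spot well above background was given on 1 control array and on all 3 over-expressing arrays. Control replicates 2 and 3 lacked it, so the control level was measured on 1 array and the log2 difference of 1.99 is given as a description of a gene chosen on these arrays. It was 0.11 when the background was corrected by normexp, which put the median over all genes at -0.35.

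Of the listed genes for enzymes that cleave sucrose, none had an unadjusted p under 0.05 in limma. The list held only invertases (with a beta-fructosidase) as such enzymes, and any other genes of this kind on the array were not examined. The vacuolar invertase GIN1 (VIT_16s0022g00670) varied widely, from 2.12 in control replicate 1 to -2.30 in 35S:VvWRKY26 replicate 2. The vacuolar invertase GIN2 (VIT_02s0154g00090) had a log2 difference of -0.67 with an interval from -1.78 to 0.44. The cell wall invertase probe (VIT_00s0426g00020), whose product feeds the hexose transporters, was well above background on 2 of the 6 arrays. Of the 7 listed genes annotated as invertases or as invertase/pectin methylesterase inhibitors 2 had a positive and 5 a negative difference, with a median of -0.28. The positive ones were GIN1, at 0.00 after rounding, and the inhibitor gene VIT_16s0022g00860, at 0.75, which the study had chosen on these arrays. The trehalose-6-phosphate phosphatase VIT_00s0304g00080, of a family that acts on a sugar signal, had a log2 difference of 0.87 and an interval from -0.73 to 2.47 (limma, unadjusted p = 0.232). Within scans its differences were 0.76, 0.97 and 0.88, and with scan as a block the standard error was 0.27 and the unadjusted p 0.0231 (adjusted p = 0.876185, limma). It too had been chosen by the study on these arrays. The other trehalose phosphate genes of the list had log2 differences of 0.01 (VIT_00s0233g00030) and -0.24 (VIT_00s0173g00110, well above background on 2 of the 6 arrays).

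**Figure D4:**
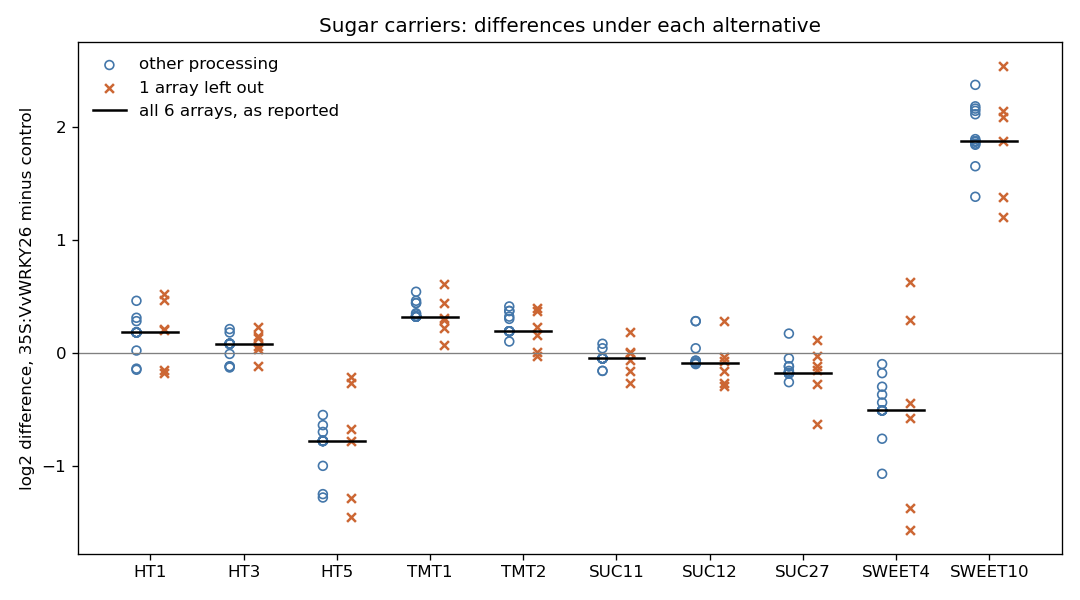
Log2 difference of each sugar carrier (vertical axis, 35S:VvWRKY26 minus control) over all 6 arrays as reported (black lines, without the marked SWEET10 spot), under other processing of the same arrays (circles) and with 1 array left out (crosses). SWEET10 stays between 1.20 and 2.54, and both ends come from fits that leave it 1 over-expressing array. HT5 stays between -1.45 and -0.21, and 7 of the 10 carriers have values on both sides of 0.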

How the data were processed

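Leaf RNA of 6 plantlets was measured on a custom one-color Agilent array (Cy3). Per array, the authors deposited spot intensities from Feature Extraction 10.5.1.1, namely the processed signal, which is detrended and background-subtracted, and the median intensities of spot and local background. A further deposited table holds their normalized intensities, scaled to the 75th percentile. In it, the values of 35S:VvWRKY26 replicate 2 equal the average of those of replicates 1 and 3 in all 34369 rows (within 0.0051 units).

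Here the processed signal was divided by its 75th percentile over the 34369 gene probes of the array and taken to log2. The 1417 control spots were left out, and between 6 and 139 outlier spots per array were treated as missing. Groups were compared in limma 3.58.1 (R 4.3.3; lmFit, eBayes; 4 residual and 1.88 prior degrees of freedom), without covariates, and two-sided p-values were adjusted by Benjamini-Hochberg across the whole array, with a threshold of 0.05. Exact permutation tests counted all splits of the arrays with an absolute difference of means at least as large. Tables and pictures used pandas 2.3.3, NumPy 2.4.6 and matplotlib 3.10.9. The script for limma was tested on simulated data beforehand.

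All 10 carriers are named. The 19 other sugar genes were picked from the annotation in the study's tables, and those with an unadjusted p under 0.05 or without overlap are named with values. The invertases, an inhibitor gene and the trehalose phosphate genes were named beyond that rule, after their values were seen. Carriers and lists were chosen with earlier results of these data known. Alternatives were another background correction, quantile normalization, no scaling, the authors' normalized intensities with and without the averaged column (the latter chosen after seeing the data), a filter on dim probes, dim spots at the lowest measured signal, outlier spots retained, array weights, a trend with intensity, blocks for scan, slide and replicate number, each array left out, and the methods' t-test. The normexp correction (offset 50) used the median spot intensity. The number of arrays limits the precision. Without a block for scan, p-values measure the spread between the arrays of a group. Within a group each line was read in a different scan, so this spread does not separate lines from scans. Genome positions and probe sequences were not used here.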

Additional observations from a re-analysis of the deposited data

How the results depend on the processing

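No carrier passed the adjusted threshold in any of the 21 alternatives, and HT5, TMT1 and SWEET10 kept their direction in all of them. No gene of the array passed it either, while between 145 and 1822 genes had an unadjusted p under 0.05. The number of carriers with an unadjusted p under 0.05, which was 1 in limma, was 0 with no scaling, with the replicate number as a block and by the methods' t-test with equal or unequal variances, and between 0 and 1 with 1 array left out. The number without overlap of the groups, which was 1, was 0 with no scaling, 2 in the authors' normalized table with or without its averaged column, and between 1 and 2 with 1 array left out. For the 19 other sugar genes the number with an unadjusted p under 0.05 was 0 with normexp correction, 4 in the authors' normalized table, 3 in that table without its averaged column, 2 with scan as a block (the ERD6 type transporter and the trehalose-6-phosphate phosphatase) or with slide as a block, and between 1 and 3 with 1 array left out.

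Directions changed in 22 of the fitted values of 7 carriers. In the authors' normalized table, with and without its averaged column, HT1 had -0.14 and -0.15, HT3 -0.12 in both and SUC12 0.28 in both. With normexp correction HT3 had -0.13 and SUC11 0.04, above a median of all genes of -0.35. With no scaling SUC11 had 0.08 and SUC12 0.04, where the median of all genes was 0.08. Array weights gave HT3 -0.01 and SUC27 0.17. With 1 array left out, HT1 lay between -0.18 and 0.52, HT3 between -0.12 and 0.23, TMT2 between -0.03 and 0.40, SUC11 between -0.27 and 0.18, SUC12 between -0.29 and 0.28, SUC27 between -0.63 and 0.11 and SWEET4 between -1.57 and 0.63. The median of all genes was 0.10 in the authors' normalized table. The cause of each change was not tested.

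The replicate numbers did not pair the arrays: deviations from the group means correlated at 0.632 for replicates 1, which were scanned together, and at -0.28 and -0.406 for replicates 2 and 3, which were not. With the replicate number as a block the log2 difference of SWEET10 was 1.38 (unadjusted p = 0.133, limma) and 246 genes had an unadjusted p under 0.05, against 355 without it. SWEET4 had no value with the filter on dim probes.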
